A study of Rattus norvegicus with 69 samples.

Results

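The genes described here were those whose RNA was concentrated in rat pachytene spermatocytes and was highest in tubules of the last stages of the cycle of the seminiferous epithelium, IX to XIV. They numbered 84 probe sets of 78 genes, out of 20826 probe sets with 1 gene symbol (14217 genes) and 31042 probe sets in all. They were chosen by the measured values themselves, from group means of linear signal with a floor of 20. The mean in pachytene spermatocytes had to be at least 100 and at least 3 times the means of round spermatids, of spermatogonia plus early spermatocytes and of Sertoli cells. The highest of the 10 stage means had to be at least 100 and at least 2 times the lowest, and had to fall at stage IX-XI, XII or XIII-XIV. Mlh3, Prok2 and Spo11 were left out by name, of which only 1 probe set, for Prok2, met the thresholds.

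All rats were Sprague Dawley animals with no genetic alteration or treatment named. Pachytene spermatocytes (4 samples), round spermatids (4) and Sertoli cells (4) came from rats 55 to 60 days old, and spermatogonia plus early spermatocytes (3) from rats 18 to 20 days old. Germ cells had been separated by elutriation to 85% to 95% purity and Sertoli cells to about 85%, per the labels. Whole testis (5 samples, age not given in the sources used here) stood beside 49 samples of tubules dissected by stage, 5 per stage group and 4 for IV-V, each a pool from 2 rats with 25 tubule segments per rat. The group called IX-XI has that name in the titles and IX-XII in the source names, so stage XII tubules may be among its samples.

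Pachytene is the longest step of meiotic prophase, in which paired homologous chromosomes finish recombination. In the rat a spermatocyte passes through pachytene from about stage I to stage XII of the cycle, enters diplotene at stage XIII and divides at stage XIV, while round spermatids of stages I to VIII come from the divisions just before. Late pachytene cells are large and rich in RNA, and they store transcripts for the divisions and for the spermatid. In mice the transcription factor A-MYB, encoded by Mybl1, switches on many genes at pachytene through MYB motifs near their starts.

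Since the genes were selected on expression only, their promoter sequence was a feature the selection had not used. RefSeq windows (rat assembly GRCr8, 250 bases before and 50 bases after the gene start) were found for 66 of the 78 genes. The MYB motif CAACNG, searched on both strands, stood in 41 of these windows, or 62.1%, against 34.1% of the windows of 11733 genes on the array and 36.2% of all 33469 windows. Among 1178 other array genes highest in pachytene spermatocytes, with a mean of at least 100 there and a peak at IX-XI to XIII-XIV, the share was 39.5%. It was 35.3% of 397 genes at least 3 times higher in round spermatids than in each other cell group, and 31.2% of 429 such Sertoli cell genes. The excess lay from 150 bases before the start to 50 bases after it: the 4 intervals of 50 bases there each held a match in 13.6% to 18.2% of member genes and in 6.36% to 6.99% of array genes. By peak, with Mllt10 counted at both of its peaks, the share was 69.2% of 13 genes highest at IX-XI, 63.0% of 27 at XII and 55.6% of 27 at XIII-XIV. These are counts of letters in windows, given without a test, and a match is not evidence of binding.

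**Figure D1:**
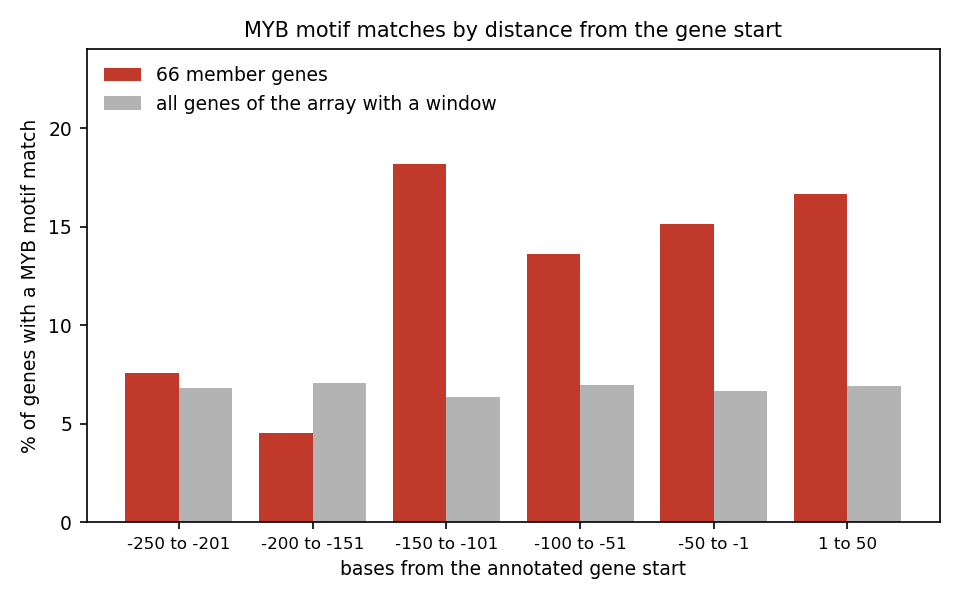
Share of genes with at least 1 MYB motif match beginning in each interval (vertical axis, % of genes) against distance from the annotated gene start (horizontal axis, bases), for the 66 member genes (red) and the 11733 array genes with a window (grey). Member genes stand above array genes in the 4 intervals from -150 to 50, and the intervals farther upstream differ little (7.58% against 6.79%, and 4.55% against 7.07%).

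The NRF1 motif CGCATGCG was present in 7 member windows (10.6%, against 3.08% of array genes), the cyclic AMP response element TGACGTCA in 3 (4.55%, against 2.86%) and the RFX motif GTTGCCAT in 1 (1.52%, against 0.972%). The median GC content was 63.2% in member windows and 60.0% in array windows. Below are the 150 bases before the start of 5 members, shown because each carries a MYB match, in capitals, in that interval. Rad50, for a subunit of the complex that holds broken DNA ends, lies at chr10:38362101-38362250 on the minus strand. Nsmce3, for a subunit of the SMC5/6 complex, lies at chr1:127813900-127814049 on the minus strand, and besides 2 MYB matches this stretch has an NRF1 motif and a cyclic AMP response element. Aurkc, for the meiotic Aurora kinase, lies at chr1:75882894-75883043 on the minus strand. Gmcl1, the homologue of the Drosophila germ cell-less gene, lies at chr4:120737258-120737407 on the minus strand, where the MYB match directly follows an NRF1 motif. Lrrc23, for a radial spoke protein of the sperm flagellum in mice, lies at chr4:159277765-159277914 on the minus strand and has 4 matches in this stretch. Each runs 5′ to 3′ along the gene's strand.
Rad50: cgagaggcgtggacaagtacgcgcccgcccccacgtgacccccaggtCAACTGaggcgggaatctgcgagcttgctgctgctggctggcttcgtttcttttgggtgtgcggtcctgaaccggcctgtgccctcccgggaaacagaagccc
Nsmce3: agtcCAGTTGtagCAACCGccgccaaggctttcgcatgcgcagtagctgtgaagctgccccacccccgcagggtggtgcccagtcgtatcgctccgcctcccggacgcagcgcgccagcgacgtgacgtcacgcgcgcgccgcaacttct
Aurkc: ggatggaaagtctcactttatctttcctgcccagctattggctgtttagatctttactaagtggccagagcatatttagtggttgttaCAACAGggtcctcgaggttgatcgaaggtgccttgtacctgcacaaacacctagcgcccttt
Gmcl1: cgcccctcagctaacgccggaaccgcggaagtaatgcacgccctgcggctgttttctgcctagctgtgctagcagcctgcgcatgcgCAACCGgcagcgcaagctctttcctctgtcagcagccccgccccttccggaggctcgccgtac
Lrrc23: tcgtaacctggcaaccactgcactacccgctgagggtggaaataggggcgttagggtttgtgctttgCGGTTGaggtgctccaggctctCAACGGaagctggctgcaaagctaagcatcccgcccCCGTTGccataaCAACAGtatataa

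Array signal had been scaled by the authors to the same trimmed mean, near 100, on each of 69 arrays. Values below are that signal, on a linear scale and with its SD over samples. Detection calls were not used here, so whether a low signal exceeds background is unknown, and levels of different probe sets cannot be set against each other. Median signal per array ran from 30.9 to 58.2. The GAPDH 3′ to 5′ signal ratio, a measure of RNA degradation, was 1.07 to 1.51 in pachytene samples and 1.75 to 2.44 in round spermatids. It was 0.958 to 1.56 in spermatogonia plus early spermatocytes, at most 1.21 in Sertoli cells and 1.19 to 1.54 in whole testis. The actin 3′ to 5′ ratio ordered the germ cells otherwise. It was 2.02 to 2.56 in pachytene samples, 1.77 to 1.99 in round spermatids and 1.54 to 3.64 in spermatogonia plus early spermatocytes. In tubules the GAPDH ratio was 0.975 to 1.71 at IX-XI and 1.17 to 2.05 at VIIc.d, but at most 1.29 at XII and at XIII-XIV. The actin ratio reached 2.72 at IX-XI and 2.86 at VIIc.d, against 1.78 at XII and 2.01 at XIII-XIV. Leydig cell genes (10 measured) summed to 365 to 586 in pachytene spermatocytes and 367 to 487 in round spermatids, against 7293 to 10529 in spermatogonia plus early spermatocytes and 6473 to 8188 in Sertoli cells. Precision is limited by having only 3 to 5 arrays in a group, and in tubules or whole testis fewer cells of a type and less RNA per cell cannot be told apart.

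Against the classical markers of the cell, the label held in part. Of 6 pachytene marker genes measured, Ldhc, Sycp3 and Mybl1 were highest in pachytene spermatocytes, and Hspa2, Ccna1 and Sycp1 were not. Ldhc averaged 3931 in pachytene spermatocytes and 3916 in round spermatids, and Sycp3 was only 1.10 times higher there than in the next cell group. None of the 6 was a member. Mybl1 averaged 736 in pachytene spermatocytes, 2.62 times its level in Sertoli cells (281), with its stage peak at XIII-XIV, and so fell short of the 3-fold threshold. The summed signal of the 6 markers was 9667 to 14831 in pachytene spermatocytes and 10710 to 11614 in round spermatids. The sum, in which genes of high signal such as Ldhc weigh most, thus did not separate the 2 fractions. Mybl1 by itself did differ, since round spermatids lay below its Sertoli level of 281.

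Among the members, every pachytene sample lay above every other isolated cell sample for all 84 probe sets, as the selection largely required. The share of all probe sets with this trait was not computed. Pachytene spermatocytes exceeded the next highest cell group by 3.00 to 9.55 times (median 3.77). Next came round spermatids for 52 probe sets, spermatogonia plus early spermatocytes for 16 and Sertoli cells for 16. The steepest were 2 of the 4 Mllt10 probe sets (9.55 and 5.91 times), Phf2 (9.43), Gmcl1 (6.64), Traf2 (6.49), Polh (6.39), LOC100912214 (5.97) and Cklf (5.91). Just inside the 3-fold threshold were Rpp25l (3.0017), a Trim14 probe set (3.0053), Lin52 (3.01) and Entpd4 (3.02). Just outside were a further Cklf probe set (2.996), Nol8 (2.98), a further Nsmce3 probe set (2.98) and Zfp57 (2.97), so Cklf and Nsmce3 each have a probe set on either side.

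Along the cycle, 16 probe sets were highest at IX-XI, 37 at XII and 31 at XIII-XIV. Without replicate 3 of every group, 89 probe sets were found, 25 of them highest at IX-XI, and with group medians in place of means 16 of 75 shared members had another peak. Leaving out only replicates 2 and 3 of stage IX-XI gave another peak to 10 of 83 shared members. The lowest stage was IV-V for 39, VI for 27, II-III for 13, VIIc.d for 3 and VIIa.b for 2. The median over the 84 probe sets of their stage means was 177 at stage I, 97.5 at II-III, 74.1 at IV-V, 81.1 at VI, 94.3 at VIIa.b, 127 at VIIc.d, 174 at VIII, 271 at IX-XI, 308 at XII and 289 at XIII-XIV. The level thus climbed from VI onward and had dropped steeply by II-III. Highest and lowest stage differed by 2.33 to 19.9 times (median 5.55). Chchd7 (2.33), Elfn2 (2.34), Pspc1 (2.38) and Aunip (2.44) were nearest inside the 2-fold threshold, and only Fnip1 (1.95) and Rimklb (1.75) were just outside it.

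Of the 95 probe sets with 1 gene symbol that passed the pachytene thresholds alone, 86 also varied enough between stages. Stage VIII was the peak of 1 of these, no stage from I to VIIc.d was the peak of any, and the remainder peaked at IX-XI, XII or XIII-XIV. Samples of the highest stage lay above all samples of the lowest stage for 83 of the 84 members, the exception being Atxn7l3b. The 2-fold threshold between these stages largely required this. The exact peak was less well resolved. In only 3 members, Stambp, LOC100912214 and Fam221a, did all samples of the highest stage lie above all samples of the second highest. The share over all probe sets was not computed for either count.

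**Figure D2:**
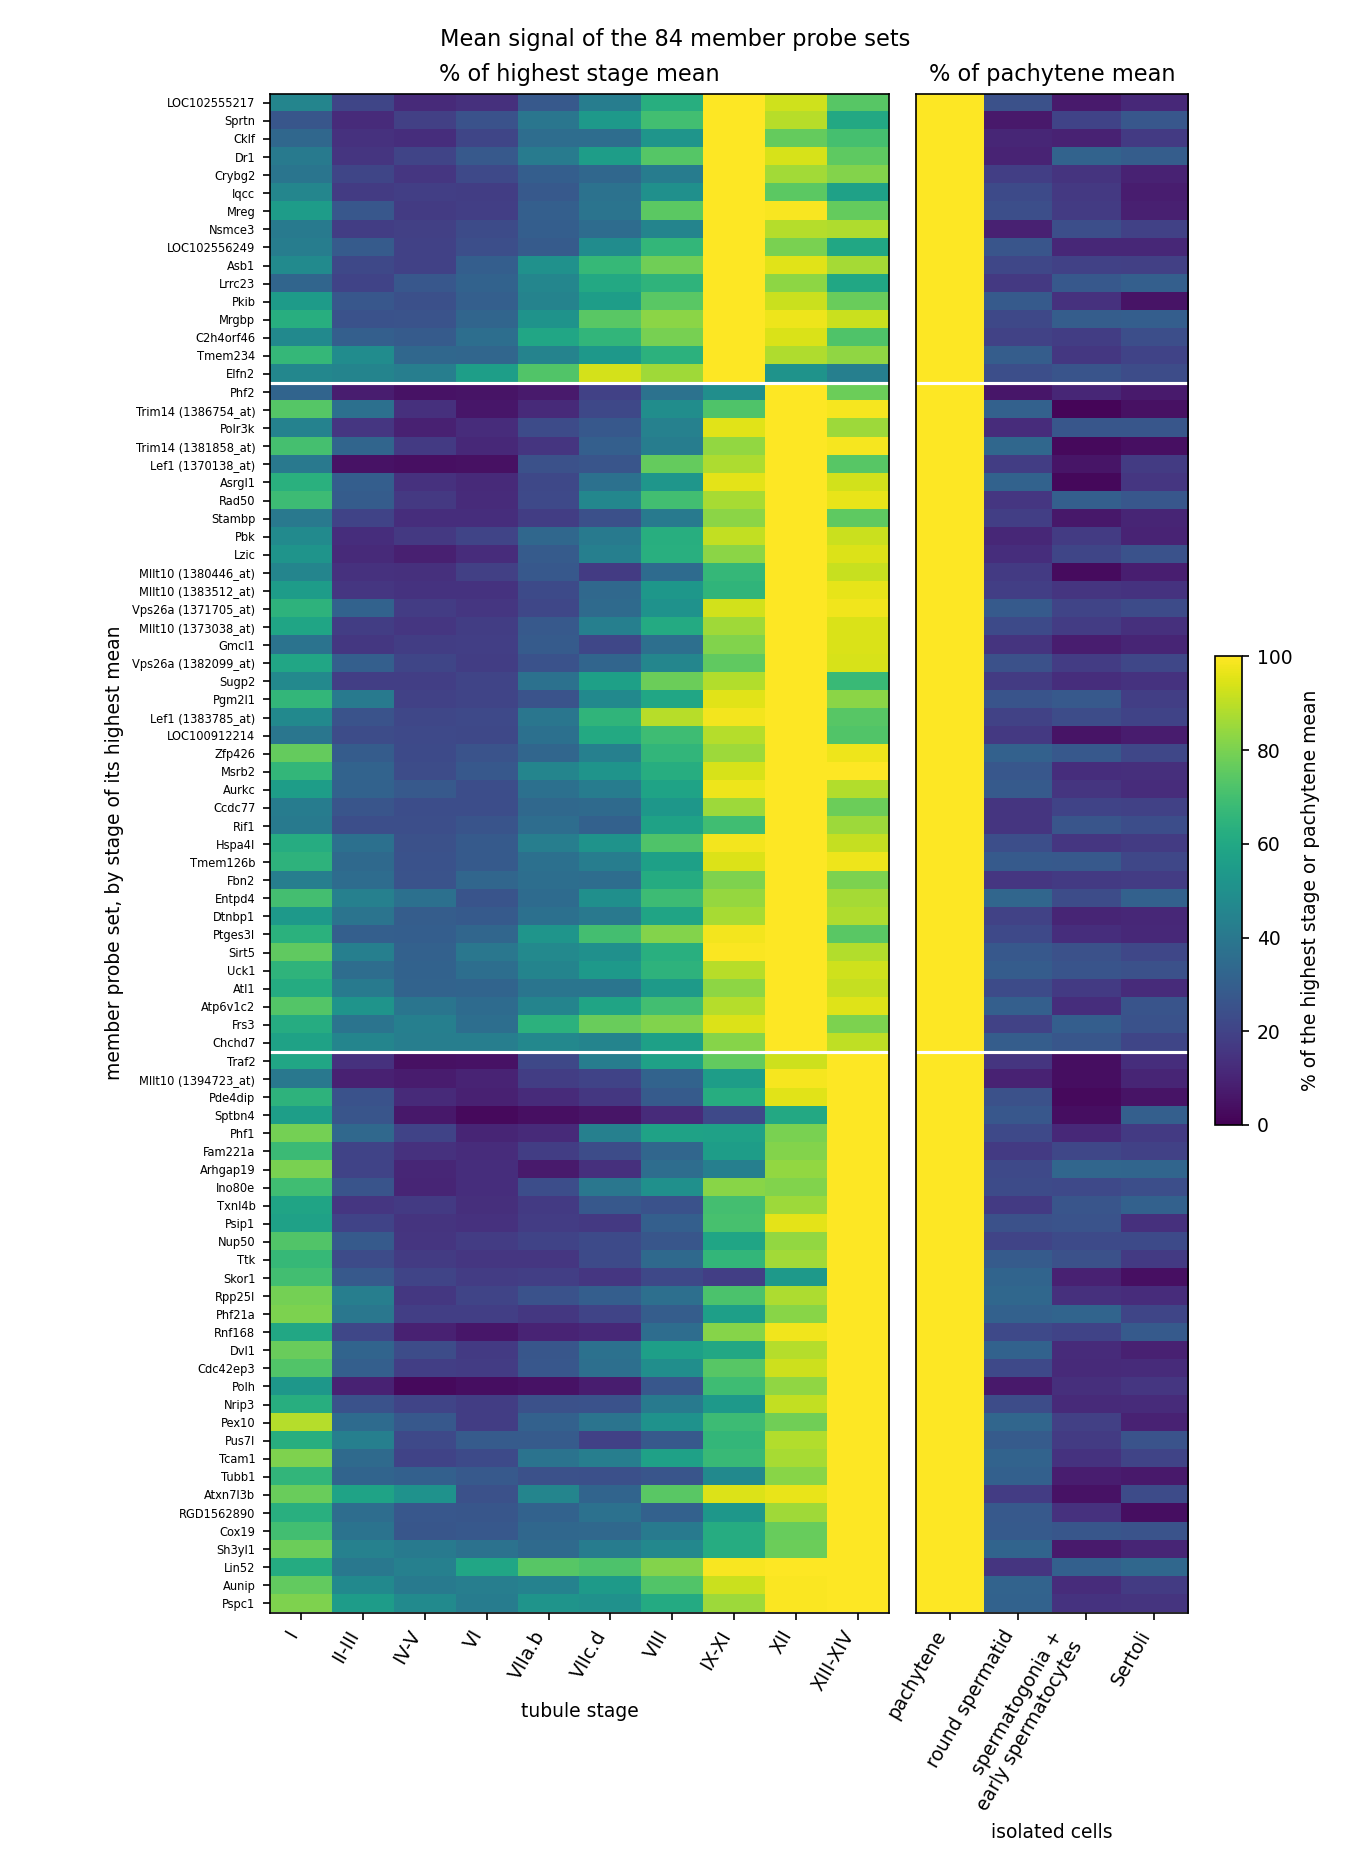
Mean signal of the 84 member probe sets (rows, grouped by stage of highest mean and, within a group, by ratio of highest to lowest stage). Left columns give the 10 stages as % of the highest stage mean, right columns the isolated cells as % of the pachytene mean. The bright block at IX-XI to XIII-XIV and the bright pachytene column are what the selection asked for, while the level at stages VIII and I differs between the 3 groups of rows.

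The genes differed in which side of the peak they extended to. At stage VIII, members highest at IX-XI had a median of 68.0% of their peak, those highest at XII 59.2% and those highest at XIII-XIV 35.8%. At stage I the order was the opposite, with medians of 45.6%, 58.7% and 69.3%. Tubules of stage I hold both the following generation of pachytene cells and new round spermatids, and which of them carried the signal was not tested. Stage VIII exceeded stage I in 15 of 16 members highest at IX-XI, in 18 of 37 at XII and in 1 of 31 at XIII-XIV. These are neighbouring points of the same stage profile that assigned the peaks, so they are a description. The extremes were Sprtn, at 69.7% of its peak at stage VIII and 26.8% at stage I, and Phf21a, for a protein of a histone demethylase complex, at 29.4% and 80.4%.

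**Figure D3:**
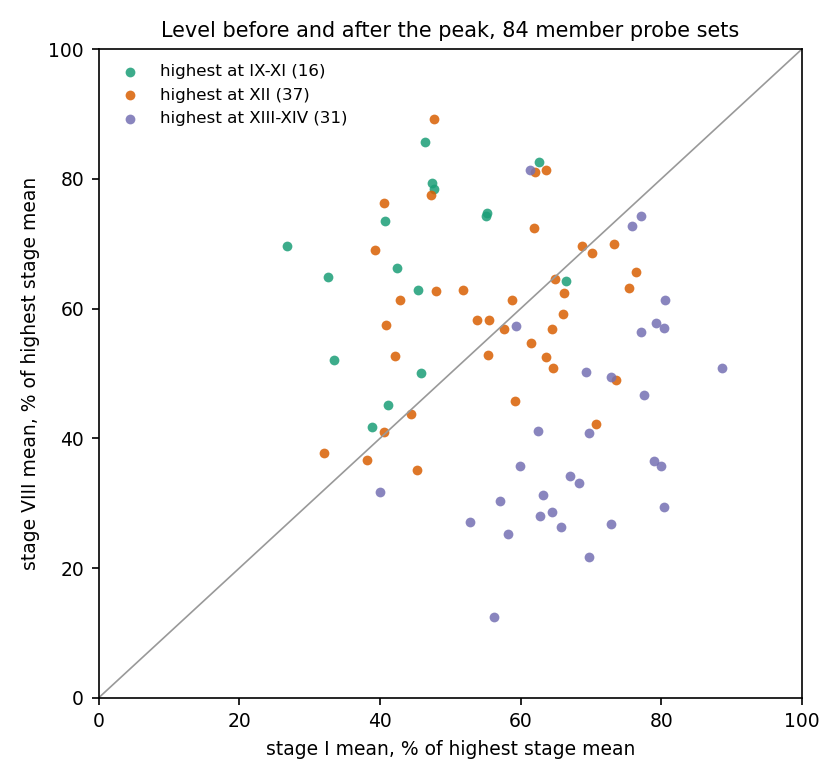
Stage VIII mean (vertical axis) against stage I mean (horizontal axis), each as % of the highest stage mean, for 84 probe sets coloured by peak stage. The line marks equal levels, with 15 of 16 members highest at IX-XI above it and 30 of 31 highest at XIII-XIV below it.

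Members that act in DNA repair were Rad50, Sprtn, Nsmce3, Polh, Rif1, Rnf168 and Aunip. These 7 genes and the groups that follow were drawn up after the values had been seen. Their highest and lowest stages differed by 2.44 to 8.17 times. On its 2 further probe sets Rif1 was only 1.16 and 1.12 times higher in pachytene spermatocytes than in Sertoli cells. Further probe sets of Nsmce3 and Rnf168 were 2.98 and 1.74 times above the next cell group. For Rad50, 1 further probe set was 2.36 times above it, and another had a pachytene mean of only 1.31. Sprtn, for the protease that clears proteins crosslinked to DNA, had signals of 1640.0, 1744, 1852 and 2109 in pachytene spermatocytes. In tubules it had 1483, 1509, 1682, 1695 and 1874 at stage IX-XI, its highest, against 181, 184, 195, 222 and 228 at II-III, its lowest. The ranges were far apart, with a ratio of means of 8.17. Rad50 was measured at 252, 277, 289 and 304 in pachytene spermatocytes. At stage XII it had 198, 212, 221, 227 and 242, against 17.5, 17.7, 26.4, 27.6 and 47.1 at stage VI. All stage XII samples were well above those of stage VI, with a ratio of means of 8.07. Polh, for the translesion polymerase eta, peaked later, at XIII-XIV, with a pachytene mean of 135 ± 26.2 (SD, n = 4), and kept 27.2% of its peak at stage VIII.

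Chromatin and transcription genes were the largest group, with 11 genes on 15 probe sets: Mllt10, Phf2, Phf1, Phf21a, Psip1, Ino80e, Mrgbp, Lin52, Dr1, Lef1 and Skor1. Phf2, for a histone demethylase with a PHD finger, had the highest ratio of stage means among members with the floor of 20 applied. Without the floor, Sptbn4 (39.5), Polh (37.2), Lef1 on 1 probe set (25.1) and Traf2 (21.4) exceeded it, all with lowest stage means under 20. Its signals were 972, 1036, 1050.0 and 1070.0 in pachytene spermatocytes. Tubules gave 496, 600.2, 606, 850.4 and 928 at stage XII and 14.03, 36.4, 42.8 and 47.0 at IV-V. The ratio of stage means was 19.9. Mllt10, for a cofactor of the histone methyltransferase DOT1L, was a member through 4 probe sets, 3 highest at XII and 1 at XIII-XIV, with ratios of highest to lowest stage of 6.28 to 13.3. Phf1, for a Polycomb-associated protein (9.58), Ino80e, for a subunit of the INO80 remodeler (7.53), and Psip1, for a chromatin-bound coactivator (6.95), were highest at XIII-XIV. Dr1, for a repressor that binds the TATA-binding protein (6.47), and Mrgbp, of the NuA4 acetyltransferase complex (3.96), were highest at IX-XI.

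Of 8 genes grouped under cell division and the cytoskeleton, 6 were highest at XIII-XIV and 2 at XII. Of all 84 member probe sets, 31 were highest at XIII-XIV and 37 at XII. The group was drawn up after the values were seen, so these counts are a description. In only 3 of the 84 did all samples of the highest stage lie above those of the second highest. Aurkc had signals of 893, 924, 1037 and 1145 in pachytene spermatocytes. It had 869.9, 881, 929, 934 and 939 at stage XII, against 157, 185, 206.5, 249.2 and 273 at stage VI. Its samples at stage XII were tightly grouped and its mean there was 4.25 times that of stage VI. Ttk, for the spindle checkpoint kinase MPS1, had 687, 732, 823 and 840.1 in pachytene spermatocytes. It was most variable at its own peak, XIII-XIV, with 348, 483, 663, 693 and 714, against 68.0, 87.2, 97.4, 100.1 and 102 at stage VI. No sample of the peak came near stage VI, and the ratio of means was 6.38. The further Ttk probe set was highest at XII, with a ratio of highest to lowest stage of 3.97. Pbk, for a mitotic kinase, peaked at XII (7.70 times its lowest stage), Pde4dip, for the centrosome and Golgi protein myomegalin, at XIII-XIV (10.8), and Arhgap19, for a regulator of the GTPase RhoA, at XIII-XIV (7.62).

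**Figure D4:**
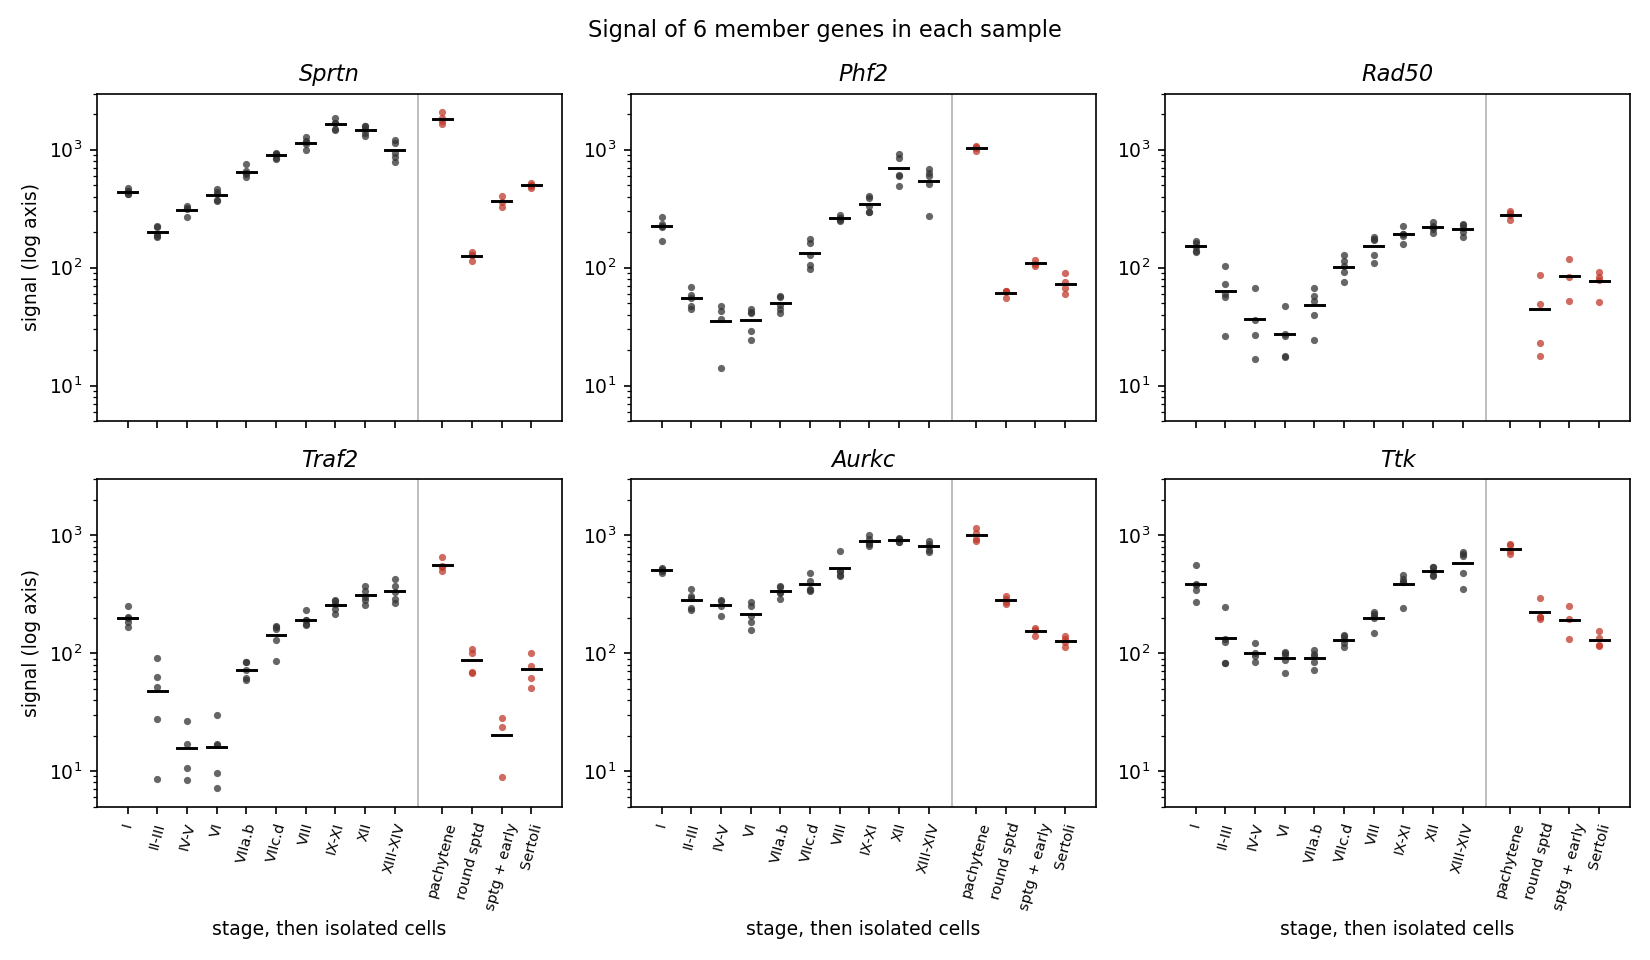
Signal of 6 member genes (vertical log axis) in each sample, by stage and then in isolated cells (horizontal axis). Points are samples (grey for tubules, red for isolated cells) and bars are means. All 6 were lowest between II-III and VI and highest at IX-XI to XIII-XIV, and Sprtn had its highest mean earlier than Traf2 and Ttk.

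Signalling and ubiquitin genes included Traf2, the adaptor of tumour necrosis factor receptors, with signals of 502, 542, 548 and 659.7 in pachytene spermatocytes. In tubules it had 264, 287, 332, 370.3 and 428 at XIII-XIV, against 8.40, 10.6, 17.1 and 26.8 at IV-V. The ratio with the floor of 20 applied was 16.8, a value that depends on the floor. Trim14, for an adaptor of antiviral signalling, was a member by both of its member probe sets (16.1 and 8.81 times), and Stambp, for a deubiquitinase of endosomes, had a ratio of 7.71. Genes of RNA synthesis and processing had 4 of 6 peaks at XIII-XIV and included Polr3k, for a subunit of RNA polymerase III (10.8), and Txnl4b, linked to the spliceosome (7.09). Membrane traffic genes had 6 of 7 probe sets highest at XII, among them both for Vps26a, a retromer subunit (6.31 and 5.57). Genes of organelles and metabolism, such as Cox19, Tmem126b and Sirt5, had 5 of 7 peaks at XII and a median ratio of 3.98. The maximum was 8.51 for Asrgl1, for an asparaginase-like enzyme. The further probe sets of Asrgl1 had ratios of only 1.47 and 1.34 and were highest in round spermatids. The other 26 genes were not grouped. Among them LOC102555217 (8.30), Cklf (7.72), Crybg2 (6.33), Iqcc (5.80) and Mreg (5.76) were among the steepest of those highest at IX-XI, and Fam221a (7.98) of those at XIII-XIV. Sptbn4, for a spectrin of the membrane skeleton, had a ratio of 10.3.

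In purified pachytene spermatocytes the signal was above that of the peak stage for 82 of 84 members, with a median ratio of 1.36. Members were chosen for a high pachytene level, and the share over all probe sets was not computed. The pachytene signal was at least 2 times the peak stage for 7: a Mllt10 probe set (6.81), Atxn7l3b (5.63), Fbn2 (2.77), Lzic (2.11), Elfn2 (2.10), Aunip (2.10) and Lin52 (2.01). Mllt10 by this probe set had 1506, 1715, 1717 and 2380.0 in pachytene spermatocytes, against 219, 250.3, 264, 295 and 315 in tubules of stage XII. By its other 3 member probe sets the ratio was only 1.34 to 1.38. Atxn7l3b, for a paralogue of a subunit of the SAGA complex, had 712, 1134, 1249 and 1516 in pachytene spermatocytes, against 67.0, 186, 219, 264 and 288 at XIII-XIV. Its other probe set gave a ratio of 1.07. For both genes the gap between isolated cells and tubules was seen on 1 probe set and not on the others.

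The selection limited the levels of round spermatids and of spermatogonia plus early spermatocytes relative to pachytene spermatocytes, but did not set which of them was higher. Round spermatids and spermatogonia plus early spermatocytes, which follow and precede pachytene, were compared with limma on log2 signal, using the 15 isolated cell samples. A call needed an adjusted p under 0.05 over all probe sets tested and at least 2-fold. Of the 84 members, 24 (28.6%, 22 genes) were higher in round spermatids, against 19.1% of the 20253 probe sets tested, and 5 (5.95%) were lower, against 34.9%. The remaining 55 were not called. Their median log2 change was 0.41, against -0.29 for all probe sets tested. The shift of all probe sets depends on how the arrays are scaled. With arrays scaled to equal medians, 37 members were higher and 2 lower, against 5250 and 5504 of all probe sets. All 84 passed the filter on low signal with pachytene samples counted. In a fit of only these 2 groups, 75 of the 84 passed it, and 23 were higher and 4 lower. Since the selection limited both levels and no such limit applied to the other probe sets, the shares describe the members and are not a test against the background.

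Highest in round spermatids relative to the younger cells were Trim14, Asrgl1, Pde4dip, Mllt10, Sptbn4 and Atxn7l3b. The steeper Trim14 probe set had signals of 226, 250.5, 295 and 334 in round spermatids, against 10.1, 11.9 and 13.7 in spermatogonia plus early spermatocytes. The groups were more than an order of magnitude apart, a log2 change of 4.04 ± 0.194 (SE, limma adjusted p = 1.38e-12), and the other Trim14 member probe set changed by 3.69. Pde4dip had 349.7, 381, 381 and 384 in round spermatids and 33.9, 34.1 and 50.5 in spermatogonia plus early spermatocytes, a log2 change of 3.11 ± 0.127 (limma adjusted p = 1.78e-13). Its other probe set gave 3.15. Asrgl1 was more variable, with 359, 679, 718 and 964 in round spermatids, against 25.2, 58.5 and 66.3 in spermatogonia plus early spermatocytes (3.64, limma adjusted p = 2.30e-09). Its other probe sets gave 4.32 and 0.77, the second under 2-fold and not called. Mllt10 rose by 2.45 and 1.17 on 2 probe sets, while the other 2 (0.34 and 0.30) were not called. The smaller Mllt10 call was lost without round spermatid replicate 1 (1.14), 2 (1.05) or 3 (0.90), or without replicate 2 (1.10) or 3 (0.75) of spermatogonia plus early spermatocytes. Sptbn4 rose by 2.31, Atxn7l3b by 2.16 and Traf2 by 1.92. The other Atxn7l3b probe set gave 0.70 and was not called. On their member probe sets the division kinases were not called, with log2 changes of 0.86 for Aurkc and 0.23 for Ttk. The other Ttk probe set was called higher in round spermatids (1.13, limma adjusted p = 1e-05).

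The 5 members lower in round spermatids were Dr1, Sprtn, Nsmce3, Polr3k and Rad50, of which Sprtn, Nsmce3 and Rad50 act in DNA repair. Of the other DNA repair genes, Aunip was called higher, and Polh, Rif1 and Rnf168 were not called. The Aunip call was lost without replicate 3 of spermatogonia plus early spermatocytes (0.98). Further probe sets of Rif1 were called lower (-2.13 and -1.38). Sprtn had 113, 127, 128 and 135 in round spermatids, against 329.5, 364 and 406 in spermatogonia plus early spermatocytes. The groups did not overlap, and the log2 change was -1.502 ± 0.107 (limma adjusted p = 3.22e-10). Dr1 had 103, 111, 112 and 116 in round spermatids, against 324, 372 and 378 in spermatogonia plus early spermatocytes (-1.65 ± 0.0984, limma adjusted p = 2.63e-11). Another probe set of Dr1 went the other way, with means of 641 in round spermatids and 142 in spermatogonia plus early spermatocytes and a log2 change of 2.13 (limma adjusted p = 3.57e-11), so no direction can be given for the gene. Nsmce3 had 24.4, 24.8, 32.1 and 39.2 in round spermatids, against 69.0, 74.6 and 97.6 in spermatogonia plus early spermatocytes (-1.29, limma adjusted p = 1.85e-06). Its other probe set changed by only 0.05 (limma adjusted p = 0.879). Polr3k fell by 1.03, and its call was lost without round spermatid replicate 2 (-0.98) or without replicate 2 of spermatogonia plus early spermatocytes (-0.91). For Rad50 the groups overlapped, with 17.7, 23.1, 48.9 and 87.4 in round spermatids and 52.4, 82.7 and 119 in spermatogonia plus early spermatocytes. Its change of -1.01 ± 0.361 (limma adjusted p = 0.0177) was lost under 9 of 16 alternative settings, although its other probe set changed by -1.11 (limma adjusted p = 1.12e-06). Without single samples the Rad50 call was lost for round spermatid replicates 3 (-0.82) and 4 (-0.72) and for replicates 1 (-0.75) and 2 (-0.99) of spermatogonia plus early spermatocytes. Nsmce3 and Polr3k were not called under either rescaling of the arrays. Pspc1, for a paraspeckle protein, also had probe sets of opposite direction, with a rise just past 2-fold on the member and a log2 change of -2.69 on the other. The member's call was lost without round spermatid replicate 1 (0.94) or 4 (0.97), or without replicate 2 (0.91) or 3 (0.95) of spermatogonia plus early spermatocytes.

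Other cells differed between these groups as well. Genes of macrophages and blood (10 measured) summed to 186 to 274 in round spermatids, against 3450 to 3918 in spermatogonia plus early spermatocytes. Sertoli cell genes (17 measured) summed to 739 to 1012 in round spermatids, against 5695 to 7460 in spermatogonia plus early spermatocytes. Genes of round and elongating spermatids (19 measured) summed to 48104 to 58342 in round spermatids and 17600 to 24038 in pachytene spermatocytes, against 504 to 566 in spermatogonia plus early spermatocytes. The part of these cells, and of the higher GAPDH ratio of round spermatids, in the members' changes was not tested. The actin ratio was not higher in round spermatids.

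**Figure D5:**
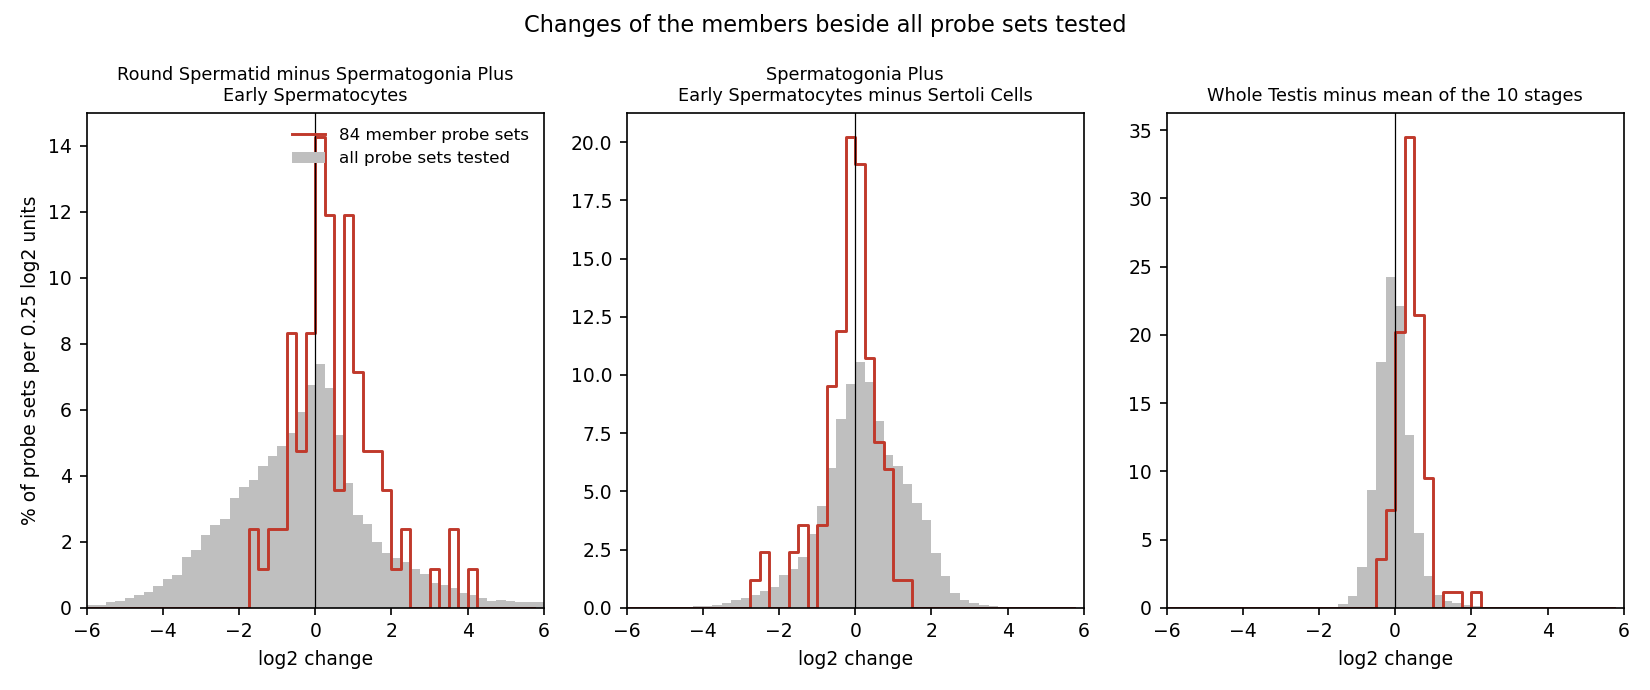
Log2 change (horizontal axis) of the 84 members (red outline) and of all probe sets tested (grey bars) in the 3 comparisons, as % of probe sets per 0.25 log2 units (vertical axis). In round spermatids minus spermatogonia plus early spermatocytes the members have a median of 0.41 and all probe sets of -0.29, and in whole testis minus stages 0.37 and -0.05.

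Between spermatogonia plus early spermatocytes and Sertoli cells, few members passed 2-fold, although 33 of 84 had a limma adjusted p under 0.05 at any fold. The share of all probe sets at any fold was not computed. At 2-fold, 2 (2.38%) were higher in spermatogonia plus early spermatocytes, against 24.9% of all probe sets tested, and 8 (9.52%, 7 genes) were lower, against 12% of them. The median log2 change was -0.04 for members and 0.23 for all probe sets. Scaling the arrays to equal medians gave 0 members higher and 23 lower, against 2382 higher and 5286 lower of all probe sets. The balance of all probe sets thus reversed with the scaling, while more members were lower than higher under both scalings. The selection limited both levels here too, and in a fit of only these groups 69 of the 84 passed the filter, so these shares also are descriptions. Pkib, for an inhibitor of protein kinase A, was higher, with 52.4, 54.6 and 65.6 in spermatogonia plus early spermatocytes, against 18.3, 19.2, 19.65 and 24.6 in Sertoli cells (1.29 ± 0.146, limma adjusted p = 9.54e-07). Its other probe set also rose (1.01). The second was RGD1562890 (1.24, limma adjusted p = 0.00665), at means of 18.8 in spermatogonia plus early spermatocytes and 4.94 in Sertoli cells, where signal and background cannot be told apart. The RGD1562890 call was lost without replicate 1 of spermatogonia plus early spermatocytes (0.94). Neither gene was called after either rescaling.

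Lower in spermatogonia plus early spermatocytes were Asrgl1, Atxn7l3b, Sptbn4, Traf2, Lef1, Mllt10 and Trim14. Asrgl1 had 25.2, 58.5 and 66.3 in spermatogonia plus early spermatocytes, against 284, 346, 352 and 373 in Sertoli cells (-2.73 ± 0.297, limma adjusted p = 6.47e-07). Its other probe sets disagreed, with log2 changes of -1.65 on one and 1.59 on another. Traf2 had 8.86, 23.6 and 28.1 in spermatogonia plus early spermatocytes, against 51.1, 61.6, 78.3 and 100.2 in Sertoli cells, with no overlap (-1.68, limma adjusted p = 3.63e-05). Atxn7l3b changed by -2.48, and by -0.08 on its other probe set (limma adjusted p = 0.61). Sptbn4 changed by -2.47, Lef1 by -1.61, Mllt10 by -1.46 and -1.35 on 2 probe sets, and Trim14 by -1.37. The calls for Lef1 (-0.96) and for the smaller Mllt10 change (-0.93) were lost without replicate 3 of spermatogonia plus early spermatocytes, and that Mllt10 call also without Sertoli replicate 1 (-1.11). Genes of round and elongating spermatids summed to 504 to 566 in spermatogonia plus early spermatocytes, against 2395 to 9106 in Sertoli cells, and their part in these levels was not tested.

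Whole testis, which the selection did not use, was set against the mean of the 10 stages, which the selection did use. The values therefore describe the members and are not an independent test. Only 3 members (3.57%) were higher in whole testis, against 2.31% of the 22504 probe sets tested, and 0 were lower, against 1.2% of them. At a limma adjusted p under 0.05 and any fold, 47 members passed, and 60 at an unadjusted p under 0.05. The shares of all probe sets at these limits were not computed, so these counts do not set the members apart. The median log2 change was 0.37 for members and -0.05 for all probe sets. The mean of logs over stages lies below the log of the mean for a gene that varies steeply between stages. On the arithmetic scale the members' median ratio of whole testis to stage mean was 1.07, against 0.990 for all probe sets with 1 gene symbol and a pachytene mean of at least 100, and in log2 units the members' median change was then 0.10.

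Atxn7l3b had 440.2, 486, 499, 654 and 821 in whole testis, against stage means that averaged 134 (log2 change 2.25 ± 0.259, limma adjusted p = 1.58e-09). The lowest whole testis sample lay above all 49 tubule samples, the highest of which was 288. Its other probe set changed by 0.50. Mllt10, on the probe set that rose by 2.45 in round spermatids, had 169, 199, 326, 366.5 and 373 in whole testis, against a stage average of 116 (1.62 ± 0.258, limma adjusted p = 2.53e-06), and overlapped the stage XII samples given above. Both were the probe sets that stood apart between pachytene spermatocytes and tubules. Lef1, for a transcription factor of WNT signalling, had on its steeper probe set 84.5, 120.3, 124, 137 and 141 in whole testis, against an average of 77.8 and, at its peak stage XII, 149, 152, 186, 190.1 and 201. Its log2 change was 1.27 (limma adjusted p = 5.57e-05), but the ratio of arithmetic means was 1.56, and its other member probe set was not called (0.26). Leydig cell genes were higher in whole testis for 7 of 10 measured and macrophage and blood genes for 4 of 6 tested, and their part in these changes was not tested.

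Further probe sets of the same genes gave a view that the selection had used only through its thresholds. There were 45 of them for 31 member genes. None reached 3-fold over the next cell group, which was largely fixed, since a probe set past every threshold would be a member. Of the 45, 37 were highest in pachytene spermatocytes. Of 35 with a pachytene mean of at least 100, 27 (77.1%) were highest there and also peaked at IX-XI to XIII-XIV. The share was 26.0% of all 6597 probe sets with 1 gene symbol and such a mean, members included. Those that departed included both further probe sets of Asb1, with means of 465 and 399 in pachytene spermatocytes and 691 and 645 in round spermatids. Both further probe sets of Asrgl1 departed too, with 2948 and 216 in pachytene spermatocytes and 3148 and 232 in round spermatids. The further probe set of Pkib had 1340.0 in pachytene spermatocytes, 1325 in round spermatids and a peak at IV-V.

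Members made up 84 of 20826 probe sets, so a short list would hold few or none. Among all probe sets with 1 gene symbol and a pachytene mean of at least 100, 38.3% were highest in pachytene spermatocytes and 44.0% peaked at IX-XI to XIII-XIV. Of 18 measured genes of meiotic recombination and synapsis, 0 were members, 6 were highest in pachytene spermatocytes and 5 peaked at those stages. The synapsis gene Sycp3 was 1.10 times higher in pachytene spermatocytes than in the next cell group, the cohesin gene Stag3 1.09 times and the synapsis gene Sycp2 1.85 times. Psmc3ip, for a partner of the meiotic recombinases, was at 0.698 of its level in round spermatids. Of 46 genes of meiotic division, Aurkc and Ttk were members, 17 were highest in pachytene spermatocytes and 19 peaked at those stages. Cks2, which binds cyclin-dependent kinases, and Pttg1, the securin, were 2.13 and 1.73 times higher in pachytene spermatocytes than in the next cell group, while Hspa2 and Cdkn3 were higher in round spermatids. None of 10 measured piRNA and germ granule genes, 12 regulators of spermatocyte transcription and RNA or 9 testis isozymes was a member.

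Between round spermatids and spermatogonia plus early spermatocytes, 5 recombination and synapsis genes were higher and 7 lower of 17 tested, and 14 meiotic division genes were higher and 11 lower of 43, beside 19.1% higher and 34.9% lower of all probe sets. Between spermatogonia plus early spermatocytes and Sertoli cells, 2 recombination genes were higher and 1 lower of 17, and 16 division genes were higher and 1 lower of 43, beside 24.9% and 12%. In whole testis against the stages, 0 recombination genes were higher and 1 was lower of 18 tested, and 2 division genes were higher and 0 lower of 42, beside 2.31% and 1.2%. On the chromosomes, all 78 member genes could be placed, and 0 lay on the X, which carried 3.15% of the 14198 array genes placed.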

How the data were processed

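Signal intensity per probe set was deposited by the authors for 69 samples, scaled so that the trimmed mean of each array is near 100 (checked on the deposited values). Groups were taken from the sample titles. Of 31042 probe sets without controls, 20826 had 1 gene symbol, 436 had several and 9780 had none in the annotation used. Symbols were updated through RefSeq for 20758. The members, gene lists, comparisons and rule for named genes were chosen with earlier results of these data known.

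Levels are arithmetic means with SD. For tests, 5.11 (the 10th percentile of the table) was added before log2, and probe sets above a signal of 43.7 in at least 3 samples of the fit were kept. Linear models were fitted with limma 3.58.1 in R 4.3.3 over all probe sets kept, with Benjamini-Hochberg adjustment, and checked on simulated data. Calls needed an adjusted p under 0.05 and at least 2-fold. The isolated cells shared 1 fit, and whole testis and the 10 stages another. Stage profiles and pachytene levels chose the members and were not tested. The text names, per peak, the members with the steepest stage ratios, those steepest over the next cell group, listed genes (non-members by highest signal, which does not rank genes), the called members with the largest changes, and those nearest each threshold. Others named for a function were chosen after their values were seen.

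Correlations between samples of the same replicate number ran from -0.063 to 0.144, so the numbers were not taken to pair samples. The labels do not say that all samples are separate animals, so p-values measure the spread between these samples, which may be partly technical. Alternatives were other pseudocounts, filters and scalings, fits of only the groups compared, a replicate block and leaving out samples. RefSeq promoter windows (GRCr8) were searched for 4 motifs.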

Additional observations from a re-analysis of the deposited data

Results flagged for a closer look

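Of 37 groups of values printed for single genes and large enough to look at, 2 held a sample far from its group, and chance alone gives about 1 in 20. Both belonged to Pde4dip. Pachytene spermatocyte replicate 4 had a signal of 1759, far above the other 3, with a gap of 0.897 of the group's range, past the 95% limit of Dixon's test. Round spermatid replicate 1 had 349.7, below the other 3, with a gap of 0.898 of the range. The round spermatid sample remains far above all samples of spermatogonia plus early spermatocytes, the highest of which was 50.5.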

How the results depend on the processing

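No result changed direction under the alternatives run. Members higher in round spermatids than in spermatogonia plus early spermatocytes numbered 24, 16 with a pseudocount of 32, 36 with quantile normalization and 37 with arrays scaled to equal medians. Those lower numbered 5, and 2 with a pseudocount of 32, with quantile normalization and with equal medians. Members higher in spermatogonia plus early spermatocytes than in Sertoli cells numbered 2, and 0 under each of those 3 settings and 1 in a fit of only these groups. Those lower numbered 8, and 5 with a pseudocount of 32, 14 with quantile normalization and 23 with equal medians. Members higher in whole testis than in the stages numbered 3, and 6 with a pseudocount of 1 or with equal medians. Their median log2 change was 0.37, and 0.10 against the arithmetic stage mean, an alternative added after the data were seen. Leaving out 1 sample at a time gave 21 to 26 higher and 4 to 7 lower, 1 to 4 higher and 7 to 10 lower, and 3 to 5 higher and 0 lower in these comparisons. Whole testis gave 5 without replicate 1 or without replicate 2. A replicate block gave 23 higher and 4 lower, 2 and 8, and 3 and 0. The thresholds found 84 probe sets, 80 with a floor of 50, 82 with group medians, 78 with quantile normalization (61 shared) and 82 to 93 without 1 replicate number. Detection calls were not used here, so how far low signals exceed background is unknown.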

Other observations

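A further 24 probe sets met every threshold but had no single gene symbol in the annotation used, and were left out of all counts.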
